A study of Mus musculus with 36 samples.

Results

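The genes described here are 32 markers of blood and lymphatic endothelium, the cells that line vessels. Each was read from the 1 probe set that carries its symbol alone in the annotation of the array, among 23410 probe sets with a symbol and 35556 in all. A further 6 probe sets that hold a member's symbol together with another were not used, and no filter on low values was applied, so all 32 genes entered every comparison. Affymetrix Mouse Gene 1.0 ST arrays, 36 in total and 3 for each of 12 groups, gave the RNA levels of epididymal and bone marrow adipocyte preparations. The mice were male on a C57BL/6J background. Leptin deficient ob/ob mice were 6 months old and on the control diet. Wild type mice received a high fat diet (HFD, 60% of calories from fat) or standard chow for 12 weeks before sacrifice at 6 and 14 months of age. Those of 18 months were on chow alone. Epididymal fat was digested with collagenase and the floating cells were taken, whereas marrow was flushed from femurs and tibias, its red cells were lysed and the floating cells were kept. Each array held RNA pooled from several mice, so the p-values measure the spread between pools. The paper took both depots of the chow and HFD mice of 6 and 14 months from the same animals. The comparisons here treated the depots as separate groups. The values are log2 expression values, and a difference of 1 is a 2-fold change.

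Endothelial cells receive vascular endothelial growth factor (VEGF) through the kinase receptors Kdr, Flt1 and Flt4, and angiopoietins through Tek, whose partner is Tie1. They are joined by Cdh5, Cldn5 and Pecam1, and Sox and ETS family factors such as Sox18 and Erg set much of their gene program. In fat, capillaries surround each adipocyte and deliver fatty acids to it, while in bone marrow the sinusoids are the route by which blood cells leave. The samples are bulk RNA, in which fewer endothelial cells and less of a transcript per cell cannot be told apart.

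The labelled cell type was checked against marker lists. The mean of 12 adipocyte markers was 11.04 to 12.25 over the epididymal groups, against 6.94 to 8.0 over the bone marrow groups. In bone marrow the neutrophil list averaged 11.72 to 12.40, the erythroid list 10.44 to 11.25 and the megakaryocyte and platelet list 8.21 to 9.66, so the marrow samples are called preparations here. A set of 8 arrays also stood apart from the other 28 on 18 probe sets without a symbol, each by a gap of at least 1. It holds the 3 epididymal and the 3 bone marrow HFD arrays of 6 months, bone marrow chow array 1 of 6 months and bone marrow ob/ob array 3. In it the mean of 57 small nucleolar RNA probe sets was 7.19 to 8.51, against 5.23 to 6.95 elsewhere. A further 5 probe sets split off the 6 arrays of 18 months, so age 18 months and that grouping of arrays cannot be told apart. Neither set is named in the labels. A model with a term for the 8 arrays was fitted as an alternative, and its counts stand beside the comparisons that use the 6-month HFD arrays. The set holds the 6-month HFD groups whole. Its term was therefore estimated only from bone marrow chow array 1 and ob/ob array 3, each against the other arrays of its group. No epididymal array informed the term, so it cannot decide whether the set matters in epididymal samples.

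Promoter sequences from RefSeq (GRCm38.p6) were at hand for 18 of the 32 genes. They show what several of these genes carry upstream, and a link of these letters to the changes below was not tested. The 6 letters AGGAAG, a core that ETS factors bind, were searched on both strands of the 250 bases before the start site. They were found in 11 of the 18 genes (61.1%), among them Aqp1, Egfl7, Emcn, Erg, Flt1, Notch4 and Robo4, against 32.3% of 27025 genes with a promoter. The longer CAGGAAG, which contains AGGAAG, was found in 7 of 18 (38.9%, against 12.1%), and the SOX core AACAAT in 3 of 18, namely Emcn, Erg and Tek (16.7%, against 10.9%). The ETS string CCGGAAG was found in 0 of 18, against 7.83%. Of the other strings, CACCC, which KLF factors bind, was found in 83.3% of the 18 genes (54.5% of all), and the GATA strings TGATAA and AGATAA in 5.56% each (9.21% and 11.4%). A match is a description of the letters, not a site, and 13 strings were searched in all. The 5 promoters below belong to genes on which the results turn, and each runs 5′ to 3′ on the gene's strand. Capitals mark AGGAAG or its reverse complement CTTCCT, which occurs 1 time in Cd34 (chr1:194938571-194938820, plus strand), 2 times in Eng (chr2:32646345-32646594, plus), 1 time in Tie1 (chr4:118489850-118490099, minus) and 1 time in Rasip1 (chr7:45627287-45627536, plus), while Cldn5 (chr16:18776597-18776846, plus) holds 0.
Cd34: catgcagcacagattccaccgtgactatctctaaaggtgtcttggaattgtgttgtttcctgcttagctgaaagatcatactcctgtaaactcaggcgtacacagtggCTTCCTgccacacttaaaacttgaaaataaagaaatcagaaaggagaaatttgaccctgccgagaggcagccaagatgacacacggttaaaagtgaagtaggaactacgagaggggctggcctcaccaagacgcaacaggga
Eng: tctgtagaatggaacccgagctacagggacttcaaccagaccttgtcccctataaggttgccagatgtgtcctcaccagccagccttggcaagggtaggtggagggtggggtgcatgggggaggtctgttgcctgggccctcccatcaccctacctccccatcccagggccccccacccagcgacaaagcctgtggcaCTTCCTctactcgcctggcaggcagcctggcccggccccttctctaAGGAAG
Tie1: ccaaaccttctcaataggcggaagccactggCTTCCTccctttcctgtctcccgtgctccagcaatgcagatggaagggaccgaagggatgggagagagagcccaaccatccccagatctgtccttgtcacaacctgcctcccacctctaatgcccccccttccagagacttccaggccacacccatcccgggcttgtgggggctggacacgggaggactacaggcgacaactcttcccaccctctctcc
Rasip1: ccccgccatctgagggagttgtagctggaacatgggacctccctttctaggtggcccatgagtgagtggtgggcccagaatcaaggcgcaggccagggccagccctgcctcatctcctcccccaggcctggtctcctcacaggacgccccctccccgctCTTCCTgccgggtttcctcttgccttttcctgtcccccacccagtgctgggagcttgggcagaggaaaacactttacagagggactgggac
Cldn5: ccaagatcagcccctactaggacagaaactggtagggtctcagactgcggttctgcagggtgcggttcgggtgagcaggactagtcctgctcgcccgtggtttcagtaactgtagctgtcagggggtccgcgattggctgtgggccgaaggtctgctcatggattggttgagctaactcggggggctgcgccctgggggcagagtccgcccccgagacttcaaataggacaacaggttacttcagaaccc

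In epididymal samples the endothelial genes had their highest levels in chow mice of 14 months and their lowest in chow mice of 18 months. The mean over the 32 genes was 7.85 in ob/ob arrays, 7.52 in HFD arrays and 7.75 in chow arrays of 6 months. It was 7.53 in HFD and 8.48 in chow arrays of 14 months, and 6.98 in chow arrays of 18 months. Of the 32 genes, 24 had their highest epididymal mean in chow mice of 14 months, where 12.7% of all probe sets had theirs, and 25 had their lowest in chow mice of 18 months, against 19.6% of all probe sets. The 3 arrays of 14-month chow averaged 8.38 to 8.57, above every other epididymal array, and those of 18 months 6.95 to 7.02, below every other. In bone marrow the range was narrower, with means of 7.06 in ob/ob, 6.70 in HFD and 6.92 in chow arrays of 6 months, 6.36 in HFD and 6.41 in chow arrays of 14 months, and 6.39 at 18 months. There 21 of 32 genes had their highest group mean in ob/ob mice, where 20% of all probe sets had theirs. This ranking does not separate ob/ob from chow mice of 6 months. The ob/ob arrays averaged 6.77 to 7.4 over the 32 genes and overlapped those chow arrays, at 6.75 to 7.08. Between these groups 0 of the 32 genes were called. For most of the 32 genes, among them Emcn, Cdh5, Tek, Ptprb and Eng, the highest ob/ob array was array 3, which lies in the set of 8. The ranking therefore leans on that array.

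**Figure D1:**
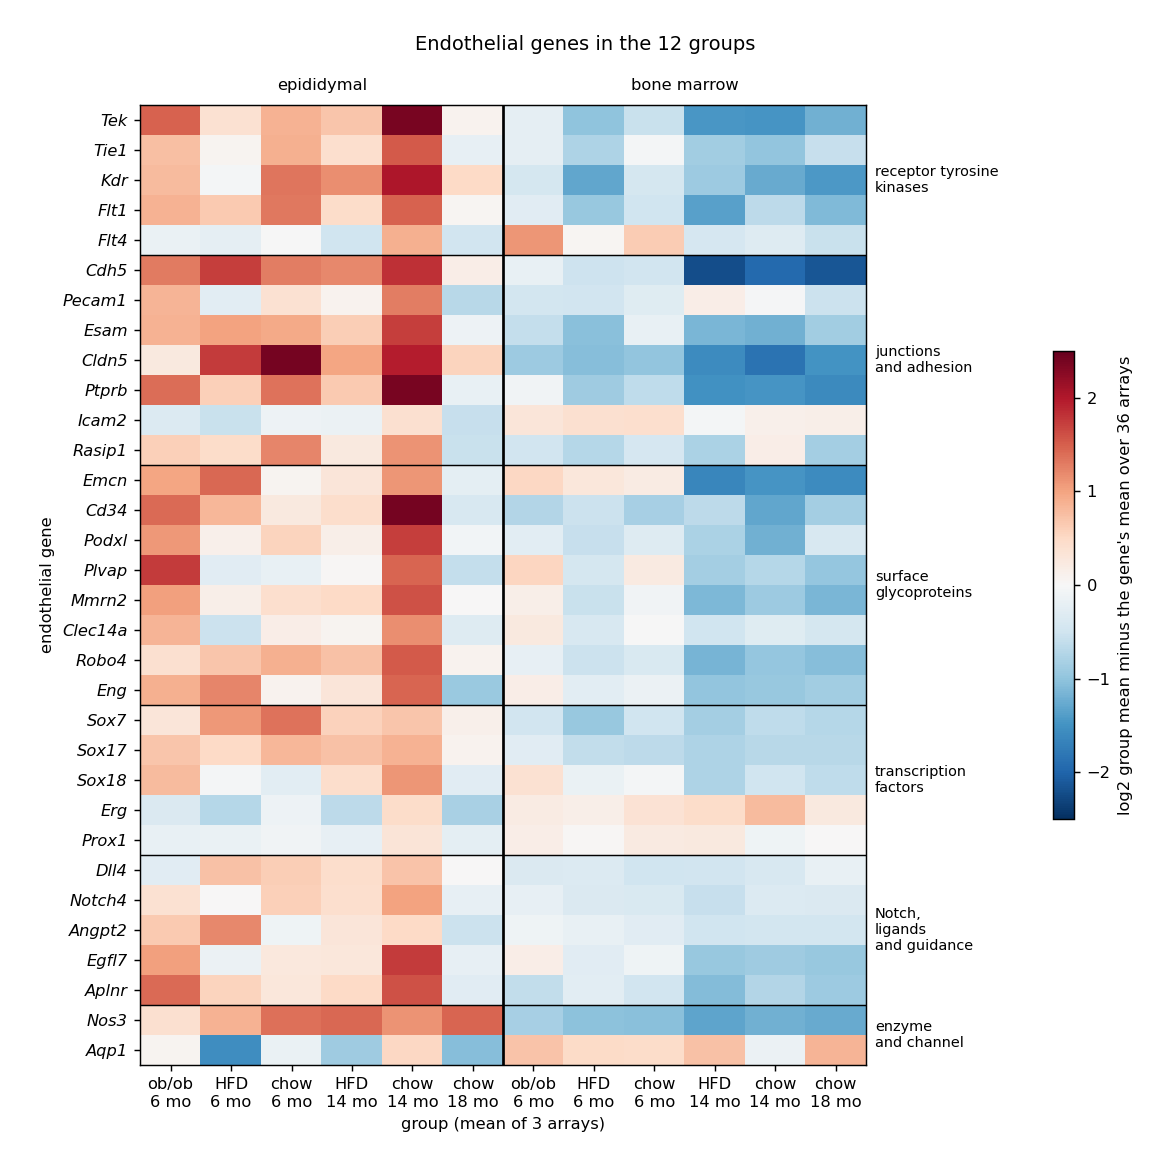
Mean log2 level of each of the 32 endothelial genes in each of the 12 groups (3 arrays each), as the difference from that gene's mean over the 36 arrays; rows are genes by role and columns are groups. The epididymal chow 14-month column is high for most genes and the epididymal chow 18-month column is low within that depot, with Nos3 as an exception.

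At 14 months most endothelial genes were lower in epididymal samples of HFD mice. Relative to chow, 24 of 32 genes were lower and 0 higher at an adjusted p under 0.05 (limma, Benjamini-Hochberg over the 23410 probe sets), where 7.06% of all probe sets were lower and 6% higher. A decrease of at least 2-fold was found for 17 genes, against 2.44% of all probe sets. The median change of the 32 genes was -1.05, against 0.03 for all probe sets. Centring each array on its own median left 21 lower and 0 higher, and moved the share of higher genes among all calls to 73.8%, against 45.9% uncentred. All 5 receptor kinases fell, as did 6 of 7 junction and adhesion genes and 7 of 8 surface glycoproteins, but only 2 of 5 transcription factors, 3 of 5 genes of the Notch, ligand and guidance group, and 1 of 2 in the enzyme and channel group.

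Among the receptor kinases, Tek, the receptor for angiopoietins, had 7.77, 7.83 and 7.93 in HFD arrays, against 9.43, 9.63 and 9.51 in chow arrays. It fell by 1.68 ± 0.19 (SE, n = 3 arrays each; limma adjusted p = 5.05e-07). The groups were more than 1 log2 unit apart at their nearest arrays. Flt4, the receptor for the lymphatic growth factor VEGF-C, had 4.84, 5.55 and 5.33 in HFD arrays and 6.65, 7.07 and 6.17 in chow arrays, a change of -1.39 ± 0.27 (adjusted p = 0.000606). Tie1 changed by -1.11 ± 0.19 (adjusted p = 0.000146), with HFD arrays at 7.80, 7.85 and 8.07 and chow arrays at 8.94, 9.13 and 8.98. Both VEGF receptors of blood vessels fell as well, Flt1 by 1.00 ± 0.18 (adjusted p = 0.000224) and Kdr by 0.86 ± 0.27 (adjusted p = 0.0321). No array of HFD mice reached a chow array in any of the 5 receptors.

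Among surface glycoproteins, the largest fall of all 32 genes was in Cd34, a sialomucin of endothelium that adipose progenitors also carry. It had 9.29, 9.38 and 9.33 in HFD arrays, against 11.24, 11.38 and 11.24 in chow arrays, and fell by 1.95 ± 0.23, or 3.87-fold (adjusted p = 7.31e-07). Podxl, a related sialomucin that lines the vessel lumen, had 6.87, 6.79 and 7.21 in HFD arrays and 8.86, 8.35 and 8.37 in chow arrays (-1.57 ± 0.18, adjusted p = 5.05e-07). Plvap, which forms the diaphragms of fenestrae and caveolae, had 7.85, 7.81 and 7.73 in HFD arrays and 9.16, 9.66 and 8.87 in chow arrays (-1.43 ± 0.26, adjusted p = 0.000243). Eng, a co-receptor for the TGF-β family, had 8.65, 8.42 and 8.58 in HFD arrays and 9.61, 9.95 and 9.57 in chow arrays (-1.16 ± 0.22, adjusted p = 0.000544). The arrays of the diets did not overlap in any of these 4 genes. Mmrn2, Clec14a and Robo4, an extracellular matrix protein, a C-type lectin and a guidance receptor of endothelium, were lower as well (-1.10, -1.10 and -0.81). Clec14a averaged 5.67 in HFD arrays, below the median of all values (5.81). Emcn, the sialomucin of veins and capillaries, changed by -0.79 ± 0.47 and was not called (adjusted p = 0.329).

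Among junction and adhesion genes, Ptprb, the phosphatase that acts on Tek and Cdh5, led with 7.94, 8.13 and 8.25 in HFD arrays, against 9.67, 10.07 and 9.78 in chow arrays (-1.73 ± 0.26, adjusted p = 2.56e-05). Pecam1, the platelet endothelial adhesion molecule, had 8.60, 8.74 and 8.70 in HFD arrays and 9.85, 9.93 and 9.84 in chow arrays (-1.19 ± 0.16, adjusted p = 4.86e-06). Esam, another adhesion molecule of endothelial contacts, fell by 1.12, the tight junction claudin Cldn5 by 0.97, Rasip1 by 0.88 and the leukocyte ligand Icam2 by 0.55. Cdh5, VE-cadherin of the adherens junction, was the member of this group that was not called. It had 9.11, 9.15 and 9.09 in HFD arrays and 9.78, 9.77 and 9.69 in chow arrays, which did not overlap, and its change was -0.63 ± 0.31 (adjusted p = 0.224). Its epididymal replicates lay close together, and the standard error comes from a spread shared with the bone marrow arrays, where Cdh5 ran from 6.79 to 8.84 over the ob/ob arrays alone.

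Of the remaining genes, Egfl7, a secreted matrix protein of vessels, had 7.46, 7.94 and 7.99 in HFD arrays and 9.43, 9.43 and 8.93 in chow arrays (-1.46 ± 0.17, adjusted p = 5.88e-07). Aqp1, a water channel that red cells also carry, had 9.78, 9.86 and 9.92 in HFD arrays and 11.22, 11.18 and 11.32 in chow arrays (-1.39 ± 0.18, adjusted p = 4.37e-06). The apelin receptor Aplnr fell by 1.09, the ETS factor Erg by 1.10, Sox18 by 0.67 and the receptor Notch4 by 0.59. The genes that were not called beside Emcn and Cdh5 were Prox1, the lymphatic master regulator (-0.52, adjusted p = 0.0788), the Notch ligand Dll4 (-0.26), the Tek ligand Angpt2 (-0.20), Sox17 (-0.15), Sox7 (-0.11) and Nos3, endothelial nitric oxide synthase. Nos3 was the only gene with a positive difference, at 8.36, 8.18 and 8.02 in HFD arrays and 7.68, 8.23 and 7.75 in chow arrays (0.30 ± 0.17, adjusted p = 0.287). Its arrays overlapped.

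**Figure D2:**
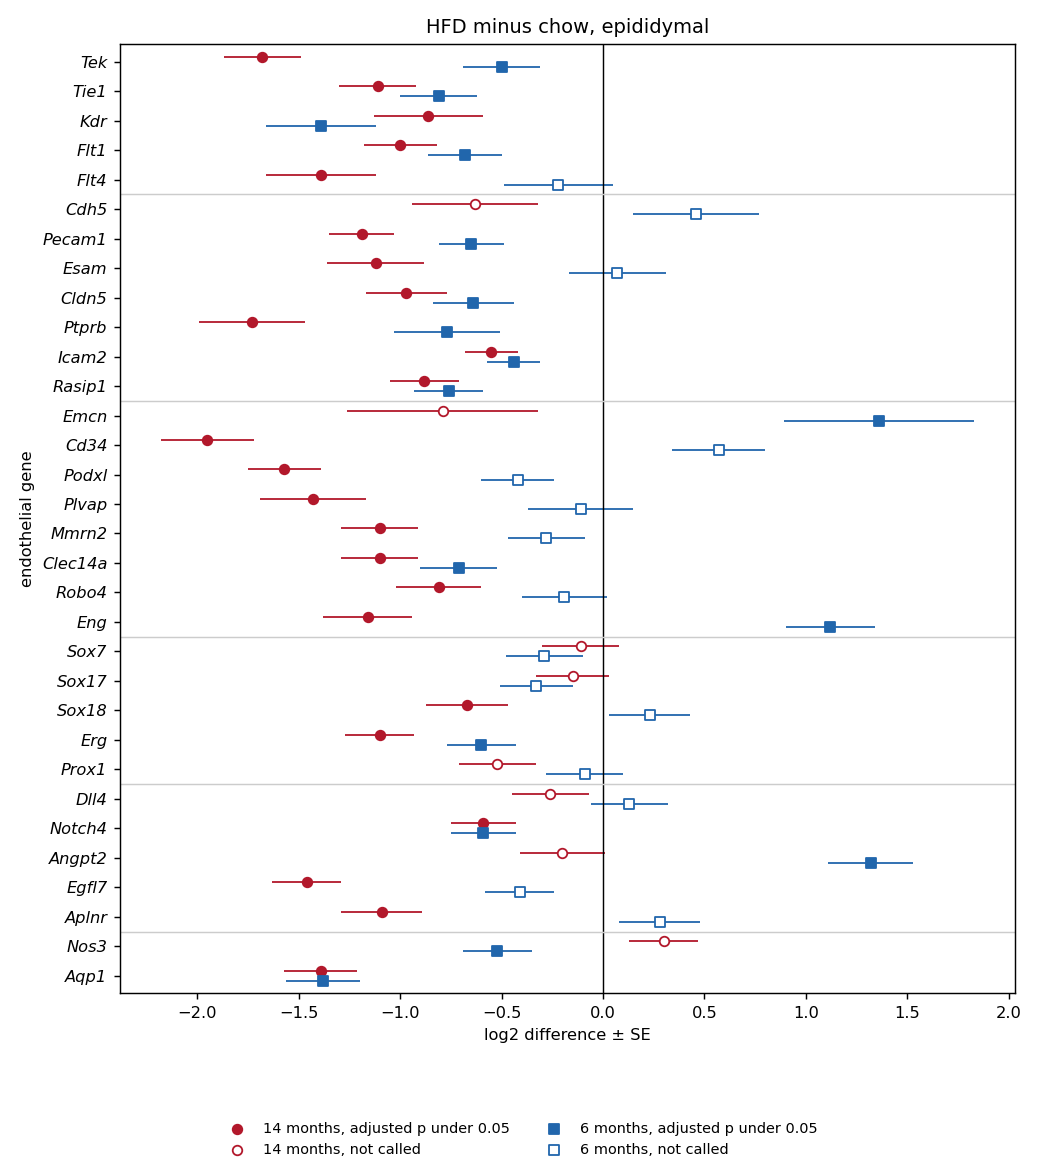
Log2 difference between HFD and chow in epididymal samples for each of the 32 endothelial genes at 6 and 14 months, ± SE (3 arrays per group), with filled points where the limma adjusted p was under 0.05. At 14 months 24 genes were lower and 0 higher, and at 6 months 14 were lower and 3 higher, with Emcn, Angpt2 and Eng on the positive side.

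At 6 months 14 endothelial genes were lower and 3 higher in epididymal samples of HFD mice than of chow mice, where 20% of all probe sets were lower and 19.2% higher. The median over the 32 genes was -0.37, against -0.11 for all probe sets, and only 2 genes fell by at least 2-fold (5.21% of all probe sets). Lower genes were 4 of 5 receptor kinases, 5 of 7 junction and adhesion genes, both of the enzyme and channel group, 1 of 8 glycoproteins, 1 of 5 transcription factors and 1 of 5 genes of the Notch group. Kdr, the main VEGF receptor, had 7.63, 7.50 and 7.55 in HFD arrays, against 8.93, 9.08 and 8.85 in chow arrays, and fell by 1.39 ± 0.27 (adjusted p = 0.000129). Aqp1 had 9.31, 9.13 and 9.11 in HFD arrays and 10.58, 10.53 and 10.59 in chow arrays (-1.38 ± 0.18, adjusted p = 7.7e-07). Both genes were more than 1 log2 unit lower in each HFD array than in any chow array.

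The other called decreases at 6 months were between -0.81 for Tie1 (adjusted p = 0.00114) and -0.44 for Icam2. The 3 that were higher were Angpt2, Eng and Emcn. Angpt2, which destabilizes vessels by opposing Angpt1 at Tek, had 6.99, 6.91 and 7.04 in HFD arrays, against 5.82, 5.80 and 5.36 in chow arrays (1.32 ± 0.21, adjusted p = 8.92e-06). Its chow mean of 5.66 lay below the median of all values (5.81). Eng had 9.50, 9.52 and 9.35 in HFD arrays and 8.24, 8.38 and 8.38 in chow arrays (1.12 ± 0.22, adjusted p = 0.000178). Emcn had 8.34, 8.31 and 8.18 in HFD arrays and 7.34, 6.87 and 6.54 in chow arrays (1.36 ± 0.47, adjusted p = 0.0211). All HFD arrays of this age lie in the set of 8 arrays. The term for that set rests on bone marrow arrays alone, so it cannot separate the diet from the set in epididymal samples. With a term for that set 1 gene was higher and 12 were lower, and Kdr (-1.25, adjusted p = 0.0214), Aqp1 (-1.25, adjusted p = 0.000925) and Angpt2 (0.86, adjusted p = 0.0249) stayed called. Eng (0.43, adjusted p = 0.282) did not, and Emcn turned to -0.73 (adjusted p = 0.197).

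The diet effect differed between the ages for 15 of the 32 genes, 14 with a more negative effect at 14 months and 1 with a more positive one, where the same test called 15.9% and 14.8% of all probe sets (48.3% of all its calls were positive, and 63.8% with centred arrays). The difference between effects was -2.53 ± 0.33 for Cd34 (adjusted p = 1.04e-06), -2.28 ± 0.31 for Eng (adjusted p = 2.77e-06) and -2.15 ± 0.66 for Emcn (adjusted p = 0.0136). Nos3 was the gene with the opposite sign, at 0.82 ± 0.24 (adjusted p = 0.00914). With the set term 8 genes were called, all with a more negative effect at 14 months, and Emcn was at -0.06 (adjusted p = 0.957). For Aqp1 the effects of the diet at 14 and at 6 months were -1.39 and -1.38.

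Genes of the same vessels outside the 32 also moved at 14 months. Vwf, the clotting factor stored in endothelial granules, had 6.42, 6.61 and 6.39 in HFD arrays, against 8.37, 9.41 and 8.44 in chow arrays (-2.27 ± 0.27, adjusted p = 7.84e-07). Gja5, connexin 40 of arterial endothelium, had 5.44, 5.08 and 5.62 in HFD arrays and 7.86, 7.88 and 7.71 in chow arrays (-2.44 ± 0.20, adjusted p = 1.19e-09). Further lists were drawn up from general knowledge, but with earlier results of these data known, so they are not independent of the data. In them 15 of 34 other pan-endothelial genes were lower and 2 higher (median -0.46). Other receptors and co-receptors were lower in 9 of 20 genes and higher in 0 (median -0.54). Other endothelial transcription factors were lower in 12 of 20 genes and higher in 0 (median -0.64). S1pr1, the sphingosine 1-phosphate receptor of endothelium, changed by -1.25 ± 0.21 (adjusted p = 8.99e-05) and the flow-responsive factor Klf2 by -1.34 ± 0.40 (adjusted p = 0.0239). Of 14 VEGF, angiopoietin and apelin ligands 3 were higher and 2 lower. Angpt1, the activating ligand of Tek, had 6.84, 6.69 and 6.96 in HFD arrays and 5.60, 6.00 and 5.50 in chow arrays (1.13 ± 0.28, adjusted p = 0.00724), while Vegfa changed by -0.05 (adjusted p = 0.898).

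The lymphatic list was lower in 9 of 13 genes and higher in 0, with a median of -1.23. Lyve1, a hyaluronan receptor of lymphatic endothelium and of some macrophages, had 6.14, 6.06 and 5.81 in HFD arrays of 14 months, against 10.35, 10.07 and 9.77 in chow arrays (-4.06 ± 0.19, adjusted p = 4.89e-14). Pdpn, which lymphatic endothelium shares with fibroblasts and mesothelium, fell by 1.97 ± 0.30 (adjusted p = 2.85e-05). Mmrn1, a multimerin of lymphatic endothelium and platelets, had 4.39, 4.15 and 3.81 in HFD arrays and 6.14, 8.32 and 6.48 in chow arrays (-2.86 ± 0.51, adjusted p = 0.000224). In each of the 3 genes the diets were separated in every array. Of the members, Flt4, which was lower, and Prox1, which was not called (-0.52, adjusted p = 0.0788), belong to this branch of the circulation. Prox1 averaged 4.36 in HFD and 4.89 in chow arrays, below the median of all values (5.81), so little can be read from its missing call. Flt4 was below that median in HFD arrays too, at 5.24, as was Mmrn1 in each HFD array.

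Markers of other cells of the fat pad moved with the endothelial genes. In epididymal samples of 14 months, 13 of 13 mesothelial markers were lower on the HFD (median -1.51), as were 8 of 12 mural cell markers with 1 higher (median -0.85), 5 of 11 fibroblast and adipocyte progenitor markers with 0 higher (median -0.83), and 3 of 14 macrophage markers with 1 higher (median -0.22). Of 12 adipocyte markers 1 was higher and 0 lower (median 0.18). The mean of the mesothelial list was 5.95 to 6.10 in HFD arrays, against 7.60 to 7.91 in chow arrays. That of the mural list was 7.50 to 7.58 in HFD and 8.04 to 8.45 in chow arrays, and that of the fibroblast list 9.19 to 9.26 in HFD and 9.92 to 10.18 in chow arrays. Krt19, a keratin of mesothelium, had 6.03, 6.16 and 6.05 in HFD arrays and 8.43, 9.01 and 9.31 in chow arrays (-2.84 ± 0.19, adjusted p = 6.84e-11). The part of these cells in the endothelial result was not tested. At 6 months the macrophage list, by contrast, had 12 of 14 genes higher and 1 lower on the HFD, with means of 10.17 to 10.26 in HFD arrays and 7.54 to 7.68 in chow arrays.

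**Figure D3:**
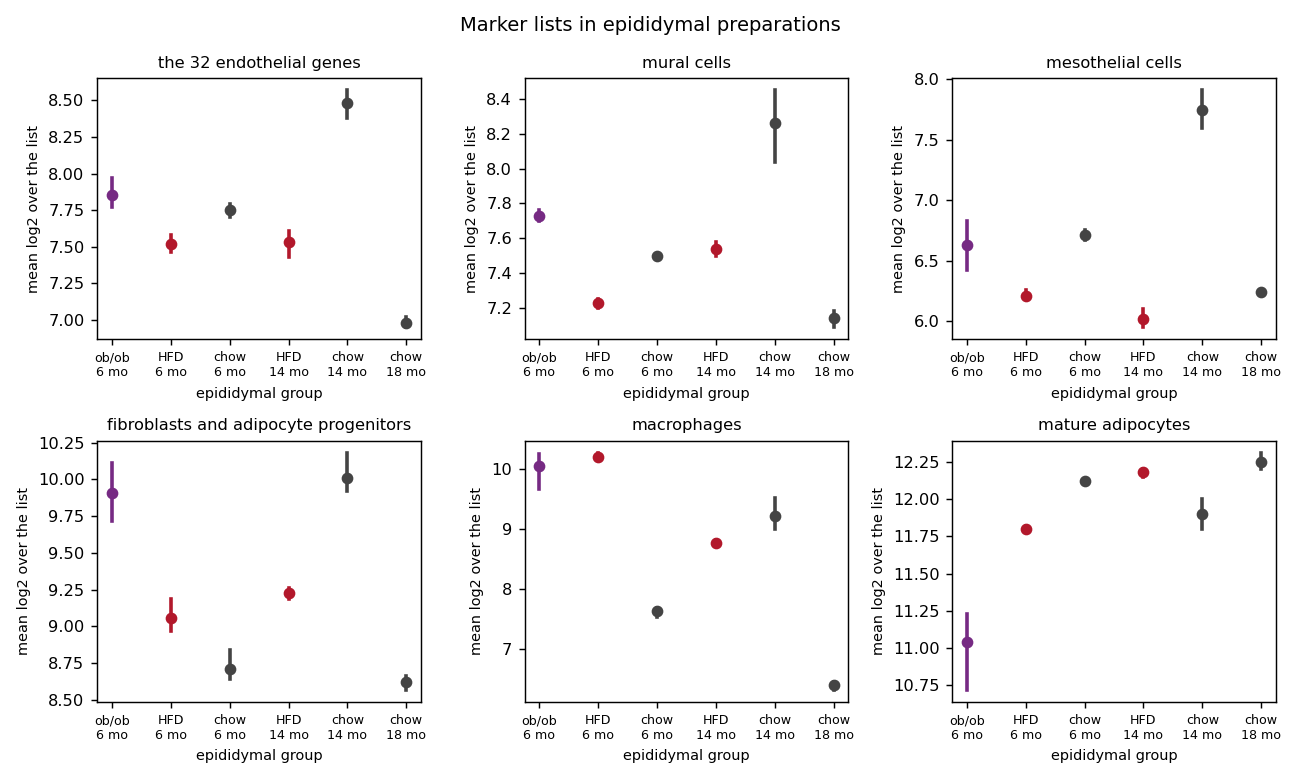
Mean log2 level of the 32 endothelial genes and of 5 marker lists (mural, mesothelial, fibroblast, macrophage, adipocyte) in each epididymal group; points are the mean of 3 arrays and bars run from the lowest to the highest array. The endothelial, mural, mesothelial and fibroblast lists have their highest mean in chow mice of 14 months, the macrophage list in HFD mice of 6 months and the adipocyte list in chow mice of 18 months.

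The ob/ob mice, which are obese from leptin deficiency, were set against chow mice of their age. In epididymal samples of 6 months 12 of 32 endothelial genes were higher and 6 lower in ob/ob than in chow mice, where 14.8% and 15% of all probe sets were, so that the share lower lay near that of all probe sets. The median of the 32 genes was -0.03, against -0.07 for all. With each array centred on its median 8 were higher and 7 lower, and 32.2% of all calls were higher, against 49.7% uncentred. Surface glycoproteins were higher in 6 of 8 genes and lower in 0 (median 0.74), and the receptor kinases were 1 higher and 1 lower of 5. The junction and adhesion genes were 1 higher and 2 lower of 7, the transcription factors 1 higher and 1 lower of 5, and the Notch, ligand and guidance group 3 higher and 1 lower of 5.

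Plvap had 10.24, 9.30 and 9.03 in ob/ob arrays, against 7.69, 7.50 and 7.59 in chow arrays, and rose by 1.93 ± 0.26, or 3.80-fold (adjusted p = 1.14e-06). Cd34 had 10.15, 10.55 and 10.23 in ob/ob arrays and 9.30, 9.18 and 8.95 in chow arrays (1.17 ± 0.23, adjusted p = 0.000259). Aplnr, the receptor of the adipokine apelin, had 8.50, 8.12 and 7.62 in ob/ob arrays and 7.15, 6.73 and 6.94 in chow arrays (1.14 ± 0.20, adjusted p = 4.43e-05). Sox18, a factor of vessel and lymphatic development, had 8.23, 7.79 and 7.43 in ob/ob arrays and 6.69, 6.87 and 6.66 in chow arrays (1.07 ± 0.20, adjusted p = 0.000115). The arrays of these 4 genes did not overlap, and for 3 of them, Plvap, Aplnr and Sox18, ob/ob array 1 was the highest of its group.

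Cldn5, the principal claudin of endothelial tight junctions, moved the other way, with 8.66, 8.35 and 8.39 in ob/ob arrays, against 10.50, 10.68 and 10.65 in chow arrays (-2.14 ± 0.20, 4.41-fold lower, adjusted p = 3.24e-09). Sox7 had 7.14, 6.51 and 6.41 in ob/ob arrays and 7.82, 7.40 and 8.04 in chow arrays (-1.06 ± 0.19, adjusted p = 9.89e-05). Nos3 had 7.08, 7.24 and 7.16 in ob/ob arrays and 8.11, 8.48 and 7.84 in chow arrays (-0.98 ± 0.17, adjusted p = 4.04e-05). Dll4, the arterial and tip cell Notch ligand, had 5.93, 6.72 and 6.65 in ob/ob arrays and 7.54, 7.36 and 7.13 in chow arrays (-0.91 ± 0.19, adjusted p = 0.000391). Each of these genes was lower in every ob/ob array than in any chow array. Rasip1 (-0.63) and Flt1 (-0.47) were the other called decreases.

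In ob/ob mice Vegfa, the ligand of Kdr and Flt1, had 8.10, 8.50 and 8.54, against 10.87, 11.24 and 11.32 in chow mice (-2.76 ± 0.15, adjusted p = 2.3e-13). Stab1, a scavenger receptor of sinusoidal endothelium and macrophages, was higher by 3.12 ± 0.22 (adjusted p = 2.07e-11), and Gja5 by 1.70 ± 0.20 (adjusted p = 1.16e-07). Of 14 macrophage markers 11 were higher and 0 lower in ob/ob mice, with a list mean of 9.67 to 10.24 in ob/ob arrays and 7.54 to 7.68 in chow arrays. The adipocyte list was lower in 9 of 12 genes and higher in 0, at 10.72 to 11.23 in ob/ob arrays and 12.10 to 12.13 in chow arrays. The fibroblast and adipocyte progenitor list, whose cells carry Cd34 too, was higher in 6 of 11 genes and lower in 2, at 9.72 to 10.11 in ob/ob arrays and 8.64 to 8.84 in chow arrays. The part of these lists in the endothelial result was not tested.

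**Figure D4:**
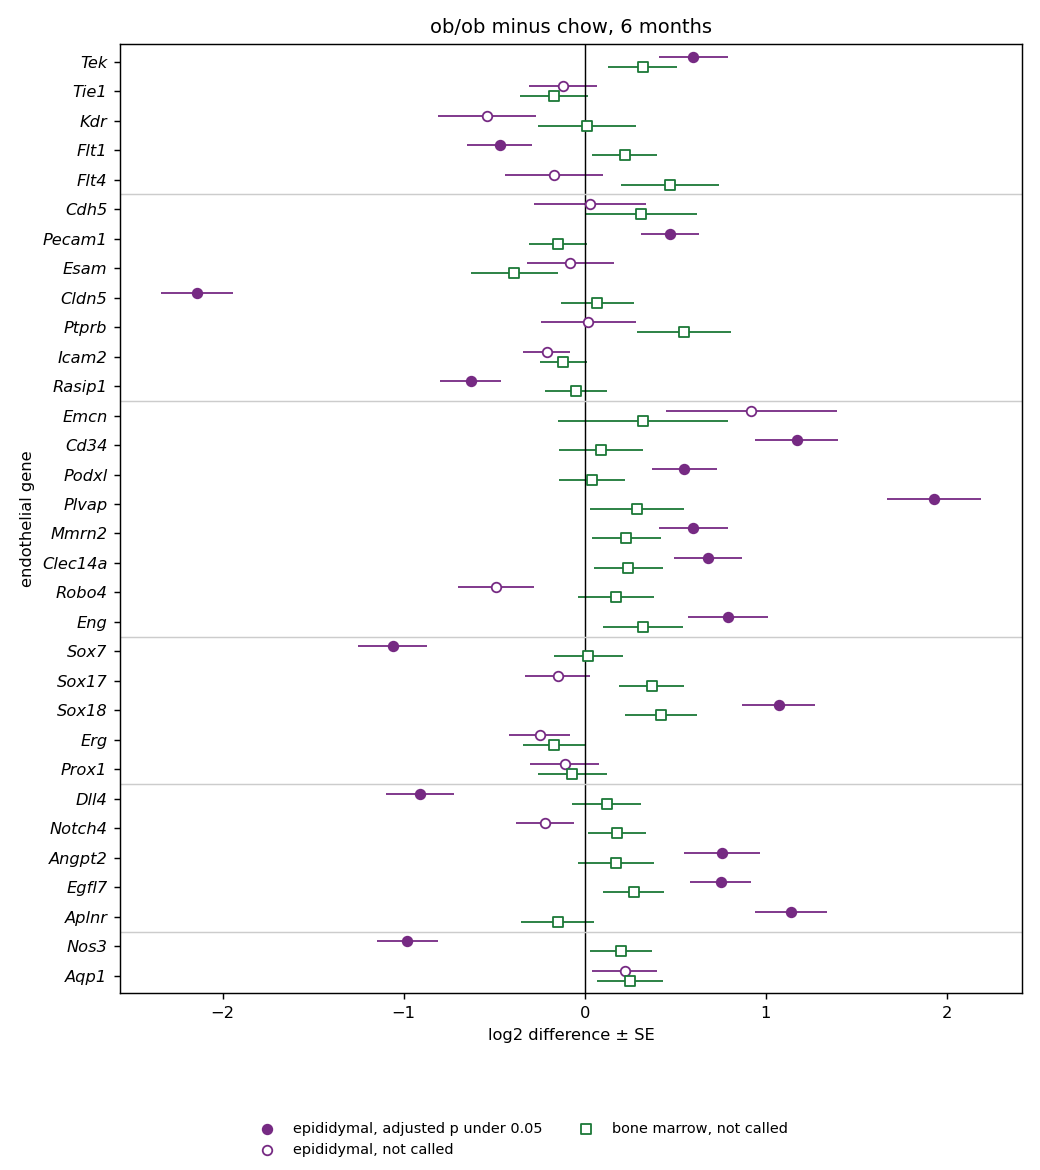
Log2 difference between ob/ob and chow mice of 6 months for each of the 32 endothelial genes in epididymal and bone marrow samples, ± SE (3 arrays per group), with filled points where the limma adjusted p was under 0.05. In epididymal samples the changes run from -2.14 (Cldn5) to 1.93 (Plvap), and no bone marrow point is filled.

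Against HFD mice of the same age, 14 of 32 genes were higher and 5 lower in epididymal samples of ob/ob mice (14.7% and 17.3% of all probe sets), with a median of 0.29 (30.6% of all calls were higher with centred arrays, against 46% uncentred). Plvap (2.04 ± 0.26, adjusted p = 1.05e-06) and Aqp1 (1.60 ± 0.18, adjusted p = 2.52e-07) were higher, and Cldn5 was again lower (-1.51 ± 0.20, adjusted p = 2.46e-06). Cldn5 had 10.22, 9.83 and 9.86 in the HFD arrays. The comparisons with chow and with HFD mice share the ob/ob arrays. With the set term 14 genes were higher and 2 lower, with a median of 0.68, and Dll4 (-0.58, adjusted p = 0.132) and Mmrn2 (0.80, adjusted p = 0.0611) lost their calls among those with the largest change.

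Over the age intervals of chow mice the genes moved in opposite directions. In the intervals that end at 18 months, age cannot be told apart from the grouping of the 18-month arrays. At 14 relative to 6 months, 20 of 32 genes were higher and 1 lower in epididymal samples, where 8.88% and 6.14% of all probe sets were, and 11 rose by at least 2-fold (3.29% of all). The median of the 32 genes was 0.68, against -0.04 for all. The glycoproteins were higher in 7 of 8 genes (median 1.17), the receptor kinases in 3 of 5, and the junction and adhesion genes in 4 of 7. At 18 relative to 14 months 31 of 32 genes were lower and 0 higher (12.3% and 10.3% of all probe sets), with a median of -1.52, against -0.01 for all, and 26 fell by at least 2-fold (4.85% of all). At 18 relative to 6 months 22 were lower and 0 higher (7.63% and 6.82%), with a median of -0.71, against -0.06 for all. With centred arrays the numbers higher and lower were 17 and 1, 1 and 27, and 0 and 16 for these intervals, and the share of higher genes among all calls was 42.6%, 81% and 80.3%, against 59.1%, 45.6% and 47.2% uncentred. The first of these intervals, the second and the comparison of HFD with chow at 14 months share the 14-month chow arrays, and the interval of 18 against 6 months shares its arrays with the other two.

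Cd34 had 9.30, 9.18 and 8.95 at 6 months, 11.24, 11.38 and 11.24 at 14 months and 8.41, 8.46 and 8.56 at 18 months. The difference was 2.14 ± 0.23 for 14 against 6 months (adjusted p = 9.8e-08) and -2.81 ± 0.21, a 7.01-fold decrease, for 18 against 14 months (adjusted p = 8.7e-12). Tek had 8.04, 8.0 and 7.99 at 6 months, 9.43, 9.63 and 9.51 at 14 months and 7.17, 7.22 and 7.32 at 18 months. Tek differed by 1.51 ± 0.19 (adjusted p = 1.74e-06) and -2.29 ± 0.18 (adjusted p = 2.48e-11) over the same intervals. Eng followed this order, with 8.24, 8.38 and 8.38 at 6 months, 9.61, 9.95 and 9.57 at 14 months and 7.34, 7.39 and 7.27 at 18 months. In these 3 genes the 3 ages did not overlap, and the order was 18, 6 and 14 months from low to high.

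Other genes had their main step at 18 months. Rasip1, which keeps the lumen of vessels open, had 8.05, 8.48 and 8.30 at 6 months, 8.11, 8.23 and 8.19 at 14 months and 6.55, 6.50 and 6.42 at 18 months. It changed by -0.10 for 14 against 6 months (adjusted p = 0.781) and by -1.79 ± 0.17 for 18 against 6 months (adjusted p = 2.4e-09). Cldn5 had 10.50, 10.68 and 10.65 at 6 months, 9.86, 10.09 and 10.58 at 14 months and 8.54, 8.97 and 8.82 at 18 months (-1.83 ± 0.20 for 18 against 6 months, adjusted p = 4.77e-08). Flt1 likewise had 8.65, 9.0 and 8.67 at 6 months, 8.88, 8.95 and 8.90 at 14 months and 7.58, 7.39 and 7.52 at 18 months. Sox7 was the single gene that was lower at 14 than at 6 months (-0.67 ± 0.19, adjusted p = 0.0171). Nos3 stood outside the pattern, with 8.11, 8.48 and 7.84 at 6 months, 7.68, 8.23 and 7.75 at 14 months and 8.23, 8.26 and 8.13 at 18 months, a difference of 0.32 for 18 against 14 months (adjusted p = 0.148).

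**Figure D5:**
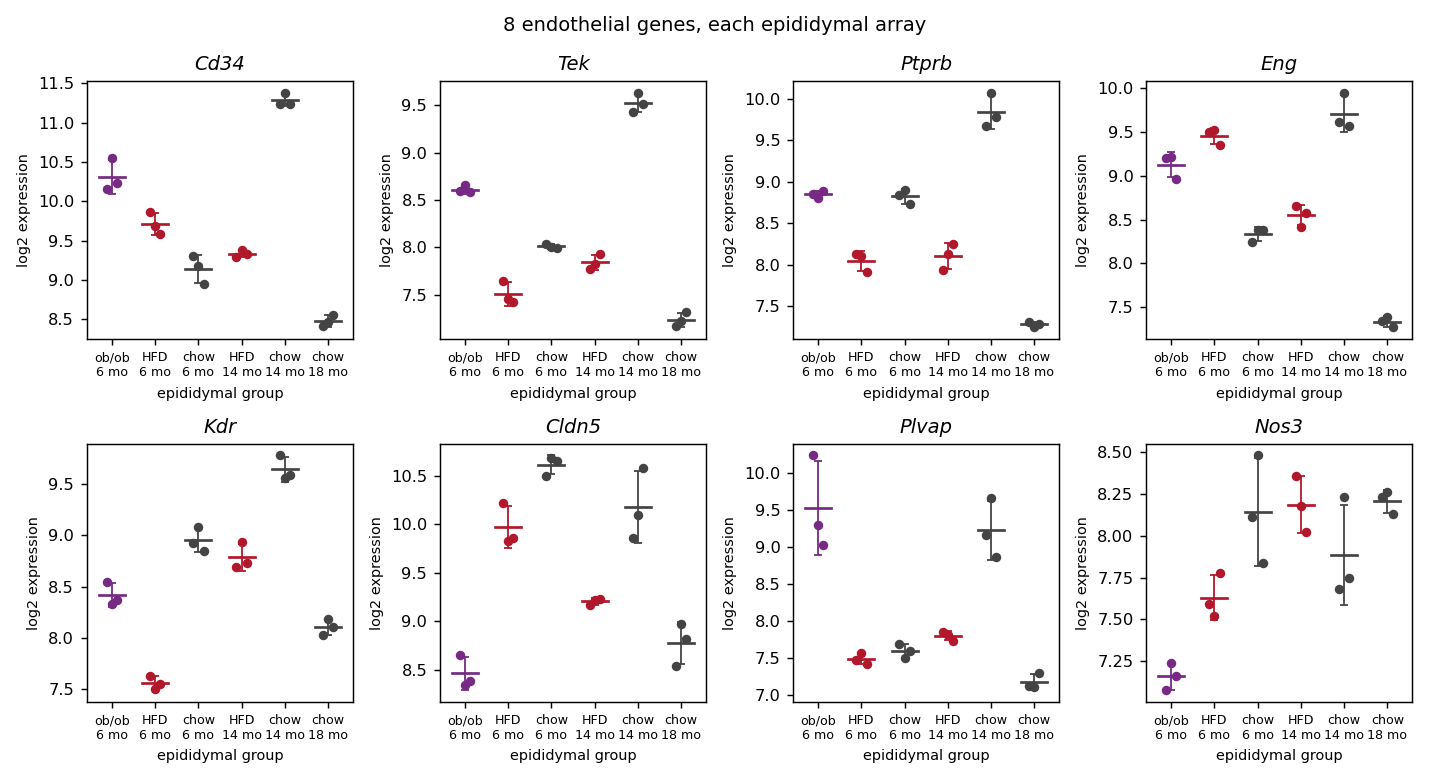
Log2 level of 8 endothelial genes (Cd34, Tek, Ptprb, Eng, Kdr, Cldn5, Plvap and Nos3) in each epididymal array, 3 per group, with the group mean as a bar and the SD as whiskers. Cd34 sits between 11.24 and 11.38 in 14-month chow arrays, above all others, Cldn5 is lowest in ob/ob arrays together with those of 18 months, and Plvap reaches its highest array, 10.24, in ob/ob mice.

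The marker lists moved with these changes in age. At 14 relative to 6 months on chow, 11 of 13 mesothelial (median 0.90), 7 of 12 mural (0.84), 8 of 11 fibroblast (1.28) and 12 of 14 macrophage markers (2.02) were higher, and the adipocyte list had 0 higher and 0 lower (median -0.24). At 18 relative to 14 months 12 of 13 mesothelial, 9 of 12 mural, 8 of 11 fibroblast and 13 of 14 macrophage markers were lower, with a macrophage list mean of 6.33 to 6.45 at 18 months and 9.0 to 9.52 at 14 months. Of 12 adipocyte markers 2 were then higher and 0 lower (median 0.34). Lymphatic genes rose in 9 of 13 at 14 relative to 6 months and fell in 10 of 13 at 18 relative to 14 months. Lyve1 had 7.54, 7.47 and 7.84 at 6 months, 10.35, 10.07 and 9.77 at 14 months and 5.94, 6.17 and 6.05 at 18 months. The part of these lists in the endothelial result was not tested.

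On the HFD, at 14 relative to 6 months, 5 endothelial genes of epididymal samples were higher and 3 lower (16.1% and 16.2% of all probe sets), with a median of 0.05, against 0.06 for all. Kdr was higher, at 8.69, 8.94 and 8.73 at 14 months, against 7.63, 7.50 and 7.55 at 6 months (1.22 ± 0.27, adjusted p = 0.000699), and Eng was lower (-0.91 ± 0.22, adjusted p = 0.002). Since each 6-month HFD array lies in the set of 8, the comparison was repeated with the set term, which rests on bone marrow arrays alone. Under it 1 gene was higher and 0 lower, the median was 0.33 and neither Kdr nor Eng was called.

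In bone marrow the diet touched few endothelial genes. At 6 months 0 were higher and 2 lower on the HFD (2.23% and 2.53% of all probe sets), with a median of -0.17. Esam had 6.11, 6.07 and 6.50 in HFD arrays, against 7.60, 6.60 and 7.02 in chow arrays (-0.85 ± 0.24, adjusted p = 0.0344), and Tie1 had 6.71, 6.46 and 6.97 in HFD arrays, against 7.18, 7.49 and 7.66 in chow arrays (-0.73 ± 0.19, adjusted p = 0.026). With the set term 0 were higher and 2 lower, and Tie1 was not called (-0.83, adjusted p = 0.0613). In the same comparison 7 of 10 megakaryocyte and platelet markers were lower and 1 higher (list means 8.02 to 8.50 in HFD arrays and 9.05 to 9.97 in chow arrays), and their part was not tested. The count of 2 rests on single arrays: it was 0 without HFD array 1 or 2 or chow array 3, 1 without chow array 2 and 5 without chow array 1.

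At 14 months 1 gene was higher and 2 lower in bone marrow of HFD mice (1.1% and 1.86%). Rasip1 had 6.25, 6.32 and 6.24 in HFD arrays, against 7.32, 6.98 and 7.36 in chow arrays (-0.95 ± 0.17, adjusted p = 0.00206). Aqp1 had 11.48, 11.51 and 11.44 in HFD arrays, against 10.56, 10.60 and 10.58 in chow arrays (0.89 ± 0.18, adjusted p = 0.00571), the reverse of its direction in epididymal samples. Of 8 erythroid markers, whose cells carry Aqp1, 1 was higher and 0 lower, and the list averaged 11.13 to 11.25 in HFD arrays and 10.32 to 10.51 in chow arrays, and its part was not tested. Flt1 was lower as well (-0.69 ± 0.18, adjusted p = 0.0307). The diet effect was more negative in epididymal than in bone marrow samples of 14 months for 18 of 32 genes and more positive for 0 (3.9% and 3.49% of all probe sets; of all its calls 47.2% were positive, and 71.2% with centred arrays, which left 10 genes). Leaving out single arrays gave 9 to 17 genes, the fewest without bone marrow chow array 3. That difference between depots was -2.59 ± 0.33 for Cd34 (adjusted p = 6.19e-06), -2.28 ± 0.26 for Aqp1 (adjusted p = 1.38e-06) and -1.98 ± 0.26 for Podxl (adjusted p = 9.84e-06). At 6 months 2 genes differed between depots with a more positive and 1 with a more negative effect in epididymal samples (11.5% and 7.17%), and with the set term 2 and 2.

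In bone marrow of ob/ob mice 0 of 32 genes passed the threshold against chow (0.0726% of all probe sets were higher and 0.205% lower). The smallest adjusted p by limma was 0.546. Without ob/ob array 3, 1 gene was lower. ob/ob array 3 lay apart from the others for several genes, for instance with Emcn at 6.38, 6.48 and 9.23 in ob/ob arrays, against 7.97, 6.79 and 6.37 in chow arrays, and Cdh5 at 6.79, 7.57 and 8.84 in ob/ob arrays, against 7.77, 7.63 and 6.88 in chow arrays. The highest array of each of these groups lies in the set of 8. Against HFD mice 5 genes were higher and 0 lower (2.06% and 2.76%), led by Flt4 (1.05 ± 0.27, adjusted p = 0.0236) and Plvap (0.97 ± 0.26, adjusted p = 0.0273). This count was 0 without HFD array 2 or ob/ob array 2, 1 without HFD array 1, 2 without ob/ob array 3 and 3 without HFD array 3, and with the set term 7 genes were higher and 0 lower. The ob/ob effect differed between depots for 7 genes, 3 more positive and 4 more negative in epididymal samples (10.7% and 9.13%; 53.9% of all its calls were positive, and 36.2% with centred arrays). Without bone marrow ob/ob array 3 the counts were 6 and 4. It differed by -2.21 ± 0.29 for Cldn5 (adjusted p = 1.66e-06), 1.64 ± 0.36 for Plvap (adjusted p = 0.00154) and 1.29 ± 0.28 for Aplnr (adjusted p = 0.00101).

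In bone marrow of older chow mice part of the endothelial genes were lower. There 12 of 32 genes were lower and 1 higher at 14 than at 6 months (1.65% and 3.65% of all probe sets), with a median of -0.53, and 12 were lower and 0 higher at 18 than at 6 months (4.24% and 2.38%), with a median of -0.48. The share of higher genes among all calls at 18 relative to 6 months was 47.8% with centred arrays, against 36% uncentred. At 14 relative to 6 months 7 genes were called without 14-month array 2 and 5 without array 3, and at 18 relative to 6 months 7 were called without 6-month array 2 or without 18-month array 1 or 3. Fitted on the arrays of the compared groups alone, 0 and 1 genes passed. Of 12 mural markers 2 were lower at 14 and 4 at 18 relative to 6 months, with list means of 6.54 to 6.68 at 6, 6.01 to 6.43 at 14 and 6.01 to 6.15 at 18 months. Of 12 adipocyte markers 0 and 3 were lower, with list means of 7.25 to 7.65, 7.22 to 7.42 and 6.90 to 6.97 at the 3 ages. The neutrophil list averaged 11.69 to 11.75 at 18 months, against 12.19 to 12.26 at 6 months, and the megakaryocyte and platelet list 9.05 to 9.97 at 6, 8.52 to 9.39 at 14 and 9.45 to 9.77 at 18 months. The part of these lists was not tested. Cdh5 had 7.77, 7.63 and 6.88 at 6 months, 6.59, 5.56 and 5.75 at 14 months and 5.38, 6.12 and 5.81 at 18 months. It changed by -1.46 ± 0.31 at 14 relative to 6 months (adjusted p = 0.00506) and by -1.66 ± 0.30 at 18 relative to 6 months (adjusted p = 0.00108). Emcn, a marker of marrow sinusoids and also of early blood progenitors, had 7.97, 6.79 and 6.37 at 6 months, 5.95, 5.11 and 5.04 at 14 months and 5.05, 5.48 and 5.26 at 18 months (-1.68 ± 0.47, adjusted p = 0.0321, and -1.78 ± 0.43, adjusted p = 0.0116, against 6 months). All 6 older arrays of both genes lay below the 3 of 6 months. For both genes the highest 6-month array was array 1, which lies in the set of 8. With the term for that set 11 genes were lower at 14 and 7 at 18 relative to 6 months, and 0 higher. Emcn averaged 5.37 at 14 and 5.26 at 18 months, below the median of all values (5.81). Tek (-0.93 ± 0.19, adjusted p = 0.00394) and Tie1 (-0.93 ± 0.19, adjusted p = 0.00333) were lower at 14 than at 6 months too, and Rasip1 was the gene that was higher (0.59 ± 0.17, adjusted p = 0.0443).

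On the HFD 9 genes were lower and 1 higher in bone marrow at 14 than at 6 months (9.23% and 12.4%), with Emcn (-1.90 ± 0.47, adjusted p = 0.00403) and Cdh5 (-1.70 ± 0.31, adjusted p = 0.000347) in front and Pecam1 as the gene that was higher. The 6-month HFD arrays all lie in the set of 8. With its term 1 gene was higher and 0 lower, and Emcn was at 0.19 (adjusted p = 0.892) and Cdh5 at -0.61 (adjusted p = 0.42). Without HFD array 3 of 6 months 6 genes were called. At 18 relative to 14 months on chow 2 genes were higher and 3 lower (3.57% and 7.26%). Rasip1 changed by -1.02 ± 0.17 (adjusted p = 8.92e-05), and Aqp1, at 11.61, 11.56 and 11.57 at 18 months against 10.56, 10.60 and 10.58 at 14 months, was higher by 1.00 ± 0.17 (adjusted p = 0.000179). Without chow array 1 of 14 months the counts were 3 and 1, and without chow array 1 of 18 months 2 and 1.

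Between the depots most endothelial genes were higher in epididymal samples of all groups but the chow mice of 18 months. In chow mice the numbers higher and lower were 20 and 3 of 32 at 6 months (23.5% and 21.1% of all probe sets), 29 and 0 at 14 months (23.1% and 20.9%) and 15 and 3 at 18 months (25.1% and 21.5%; 53.9% of all calls were higher there, and 66.8% with centred arrays). In HFD mice they were 21 and 3 at 6 months (23% and 16.7%), also with the set term, and 26 and 2 at 14 months (23.8% and 21.3%), and in ob/ob mice 24 and 4 (23.7% and 20.6%). The median difference over the 32 genes was 0.89, 2.25 and 0.42 in chow mice of 6, 14 and 18 months. Tek had 9.43, 9.63 and 9.51 in epididymal arrays of 14-month chow mice, against 6.02, 5.35 and 5.62 in bone marrow arrays (3.86 ± 0.19, adjusted p = 2.34e-15). Cldn5 was higher in epididymal samples by 3.36 ± 0.20 in chow mice of 6 months (adjusted p = 7.47e-14), and Nos3 by 2.71 ± 0.16 in those of 18 months (adjusted p = 7.46e-16).

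Aqp1, Icam2 and Erg were the 3 genes that were lower in epididymal samples of chow mice of 6 and 18 months and of HFD mice of 6 months. Aqp1, which red cells carry too, differed by -2.03 ± 0.18 between epididymal and bone marrow samples of HFD mice of 6 months (adjusted p = 4.32e-10) and by -1.92 ± 0.17 at 18 months. The exception was 14-month chow mice, where it was higher in epididymal samples by 0.66 ± 0.18 (adjusted p = 0.00403). Erg, an ETS factor that hematopoietic stem cells and megakaryocytes also use, differed by -1.06 ± 0.16 at 18 months (adjusted p = 9.27e-07), and Icam2, which leukocytes and platelets carry, by -0.73 ± 0.13 (adjusted p = 9.37e-06). Flt4 was lower in epididymal samples of ob/ob mice, at 5.49, 5.71 and 5.48 against 6.20, 6.83 and 7.47 in bone marrow (-1.27 ± 0.27, adjusted p = 0.00031), and higher in those of 14-month chow mice (1.22 ± 0.27, adjusted p = 0.000417). Capillary genes of fatty acid transport and lipid handling, a list that adipocytes share in part, were higher in epididymal samples of 6-month chow mice in 12 of 13 genes and lower in 1 (median 3.52).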

How the data were processed

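Log2 expression values were deposited by the authors, 1 per probe set and array. The authors summarized the scans of Affymetrix Mouse Gene 1.0 ST arrays and normalized them by quantiles in the Partek software. The methods name gcRMA for the summary and the processing notes name both RMA and GCRMA, so which of them made the values is not settled here. Either can compress differences of dim probe sets. Which arrays were normalized together is not given in the sources used here. Arrays have no read depth: 3 pools per group limit the precision. Array medians were 5.58 to 5.98, and arrays of a group correlated at 0.9552 or above.

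A model of group means (lmFit and eBayes of limma 3.58.1, R 4.3.3) was fitted to 30 arrays, and to all 36 for the 18-month comparisons, with no covariate, over 23410 probe sets with a symbol. A gene was called where its p, adjusted by Benjamini and Hochberg's method, was under 0.05, with no minimum fold, and 22 comparisons of groups and 4 interactions were made. Named genes are called members whose arrays did not overlap, at most 10 per comparison and 3 per interaction or other list, and members that depart from the rest. The members and lists were chosen with earlier results of these data known. Replicate numbers did not pair the arrays. In the 22 comparisons, correlations of same-numbered deviations ran from -0.55 to 0.40, and in 0 were all over 0.1.

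Alternatives were no moderation, arrays of the compared groups alone, all 36 arrays, quantile normalization, centring, a filter on dim probe sets (mean below the median value), the whole table, 1 probe set per gene, array weights, a 2-fold minimum, a replicate block, a term for the set of 8 arrays and leaving out each array. The fit without bone marrow chow array 1 of 6 months and bone marrow ob/ob array 3 was added after seeing the data. Promoters were RefSeq sequences of GRCm38.p6. The metabolic and histological measurements were not analysed here.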

Additional observations from a re-analysis of the deposited data

Results flagged for a closer look

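Effects of diet or genotype differed between ages or depots by a test of the difference itself (limma interaction, adjusted over all probe sets) for the genes below, the 3 largest per interaction. Between 14 and 6 months in epididymal samples, the HFD effect differed by -2.53 for Cd34, -2.28 for Eng and -2.15 for Emcn. There 14 of 32 genes had a more negative and 1 a more positive effect, against 15.9% and 14.8% of all probe sets. With a term for the set of 8 arrays, which holds the 6-month HFD arrays, Emcn was at -0.06 (adjusted p = 0.957). That term was estimated from bone marrow arrays alone.

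Between epididymal and bone marrow samples, the HFD effect at 6 months differed by -1.41 for Aqp1, 1.25 for Angpt2 and 1.23 for Eng. These were the only calls, 2 of 32 genes more positive and 1 more negative. That is below the shares of all probe sets, 11.5% and 7.17%. At 14 months it differed by -2.59 for Cd34, -2.28 for Aqp1 and -1.98 for Podxl, with 18 of 32 genes more negative and 0 more positive (3.9% and 3.49% of all probe sets). The Aqp1 effects were -1.39 in epididymal and 0.89 in bone marrow samples of 14 months.

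The ob/ob effect at 6 months differed between epididymal and bone marrow samples by -2.21 for Cldn5, 1.64 for Plvap and 1.29 for Aplnr. In all, 3 of 32 genes were more positive and 4 more negative. These counts lie near the shares of all probe sets, 10.7% and 9.13%. The Cldn5 effects were -2.14 in epididymal and 0.07 in bone marrow samples.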

How the results depend on the processing

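Of 194 changes of single members followed under the alternatives, 3331 of 3505 values kept direction and call, 171 lost the call and 3 reversed. The 194 are the named changes, all called in the main fit. None could therefore gain a call, and they do not speak for the members that were not named. All 3 reversals came with the term for the set of 8 arrays: Emcn on the HFD at 6 months in epididymal samples (-0.73), and Emcn (0.19) and Robo4 (0.07) at 14 relative to 6 months on the HFD in bone marrow. That term was estimated from bone marrow arrays alone. Replicate numbers did not pair the arrays, and the replicate block changed none of these calls, with 17 and 24 members called for the epididymal HFD effect at 6 and 14 months. Centring each array moved the median of all probe sets by 0.15 for the epididymal HFD effect at 14 months, by 0.18 and 0.26 for 18 against 6 and 14 months, by -0.11 and -0.12 for ob/ob against chow and HFD, and by 0.18 for the depots at 18 months. Precision is limited by 3 pools per group.

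Counts of members called that moved by more than 1.5 times, or whose balance turned, were as follows; the cause was not tested unless the setting itself removes genes or arrays. With a 2-fold minimum in epididymal samples, 5 were called for HFD at 6 months (3 higher, 2 lower, a reversed balance), 6 and 8 for ob/ob against chow and HFD, 11 and 1 for 14 against 6 months on chow and HFD, and 10 for 18 against 6 months. In bone marrow it left 0 for HFD at 6 and at 14 months, 1 for ob/ob against HFD, 3 and 2 for 14 against 6 months on chow and HFD, 5 for 18 against 6 and 2 for 18 against 14 months. Between depots it left 14 in chow mice of 6 months and 15 in ob/ob mice. With the arrays of the compared groups alone, 22 were called for 14 against 6 months on HFD in epididymal samples. In bone marrow the same setting gave 0 for HFD at 6 months, 0 for ob/ob against HFD, 0 for 14 against 6 months on chow and 1 for 18 against 6 months. It gave 5 for diet by depot at 6 months and 4 for genotype by depot. Array weights, whose estimation did not converge in some fits, gave 21 for 14 against 6 months on HFD in epididymal samples. In bone marrow they gave 13 for HFD at 6 months, 13 for ob/ob against HFD, 25 for 14 against 6 months on HFD and 8 for 18 against 14 months. For diet by depot at 6 months they gave 9, and for genotype by depot 14 (9 positive and 5 negative, a reversed balance). Without moderation, 1 was called for HFD at 6 months, 2 for ob/ob against HFD and 8 for 14 against 6 months on chow in bone marrow, and 9 for diet by depot at 14 months. All probe sets of the table gave 1 for HFD at 6 months and 8 for 14 against 6 months on chow in bone marrow. All 36 arrays and quantile normalization each gave 8 for ob/ob against HFD in bone marrow, and quantile normalization 11 for genotype by depot. Centring gave 10 for diet by depot at 14 months. The term for the set of 8 arrays gave 1 for 14 against 6 months on HFD in epididymal samples and 1 in bone marrow, where it was higher and the balance reversed, 7 for 18 against 6 months in bone marrow and 8 for diet by month. Without bone marrow chow array 1 of 6 months and ob/ob array 3, a setting chosen after seeing the data, 13 were called for 14 against 6 months on HFD in epididymal samples, 7 for HFD at 6 months in bone marrow and 14 for genotype by depot (9 positive and 5 negative).

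Leaving out each array in turn gave, in epididymal samples, 13 to 16 for HFD at 6 months, 21 to 24 for HFD at 14 months, 13 to 17 and 15 to 17 for ob/ob against chow and HFD, 15 to 18 and 7 to 10 for 14 against 6 months on chow and HFD, and 16 to 21 and 28 to 31 for 18 against 6 and 14 months. In bone marrow it gave 0 to 5 and 2 to 3 for HFD at 6 and 14 months, 0 to 1 and 0 to 7 for ob/ob against chow and HFD, 5 to 14 and 6 to 8 for 14 against 6 months on chow and HFD, and 7 to 13 and 3 to 5 for 18 against 6 and 14 months. The last fell to 4 without chow array 1 of 14 months and to 3 without chow array 1 of 18 months, with more higher than lower genes. It gave 11 to 14 for diet by month, 3 to 4 and 9 to 17 for diet by depot at 6 and 14 months, and 6 to 10 for genotype by depot, with 10 and a positive balance without bone marrow ob/ob array 3.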
